A study of Homo sapiens with 8 samples.

Results

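The comparison described here set 3 short hairpin RNAs against CDK2, a cyclin-dependent kinase, against a scrambled hairpin 2 days after transduction. It used 4 of the 8 arrays of the series: the scramble array and the arrays of shCDK2 #1, shCDK2 #3 and shCDK2 #10 at day 2, chosen by their labelled construct and time. NB4, the line used, is a human acute promyelocytic leukaemia line, and all 4 cultures, the scramble control included, received lentivirus at a multiplicity of infection (virus units per cell) of 10. Each array was labelled from 6 micrograms of total RNA, so there is 1 array per construct. The other 4 arrays carry the same constructs at day 5, and day 2 is labelled an early and day 5 a late stage of differentiation. No inducer of differentiation is named in the labels. The labels do not say whether the cultures were started separately, so any p-value measures only the spread between these arrays. In the main limma fit that spread, and so each SE, was estimated from the hairpin arrays of both days. As 1 scramble array served all 3 hairpins, a deviation of that array enters every difference in the same direction.

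CDK2 binds E- and A-type cyclins and phosphorylates RB-family proteins and replication factors, which carries cells from G1 into and through S phase. NB4 cells are blocked at the promyelocyte stage by the PML-RARA fusion protein, and retinoic acid releases them towards neutrophil-like cells. Myeloid maturation is known for loss of proliferation and of ribosome production and for gain of surface integrins, Fc receptors and chemoattractant receptors.

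Signals are log2 values as deposited, on which a difference of 1 is a 2-fold change. Of 18132 genes, 12845 with a mean over the 8 arrays above 5.83 log2 (the 40th percentile of all probe sets) were tested. The medians of the 4 arrays lay between 6.34 and 6.39 log2. The promyelocyte genes MPO, PRTN3, AZU1 and CTSG read 14.35, 11.18, 9.28 and 9.29 log2 in scramble, each well above the filter level, while ELANE read 6.31. Of the monocyte and macrophage markers, CD14 and CD163 stayed at or under 5.76 log2 in all 4 arrays, and CSF1R read 7.10 log2 in scramble and 7.42, 7.20 and 7.68 in #1, #3 and #10. The array of hairpin #10 stood apart. Its correlation across genes with scramble was 0.93, against 0.98 for #1 and 0.98 for #3, and genes are not independent replicates.

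CDK2 RNA was lower than in scramble with hairpins #1 and #10 and close to scramble with hairpin #3. Its brightest probe set read 9.10 log2 in scramble, 7.78 in #1, 9.03 in #3 and 7.54 in #10. These are 39.9%, 95.03% and 33.95% of the scramble signal. A second probe set gave 28.1%, 80.5% and 26.6%, and another, dimmer one gave 79.7%, 108.1% and 71.7%. In #1, 13 tested genes were lower by more than CDK2 was, and in #10, 70 were, but in #3 the number was 4700. The mean of the hairpins lay -0.99 log2 from scramble (SE 0.53, 95% interval -2.24 to 0.27, n = 3 against 1, limma adjusted p = 0.9999). It was -0.53 against both scramble arrays as 1 group, and -0.82, -1.44 and -0.70 without #1, #3 and #10. Scramble itself read 8.19 log2 at day 5, 53.2% of its day 2 signal, so the difference of #1 and #10 from scramble rests on a scramble value that was not repeated. The library labelled shCDK2 #3 thus did not show lower CDK2 RNA beyond the range of its own probe sets, and its differences below are those of the array with that label.

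**Figure D1:**
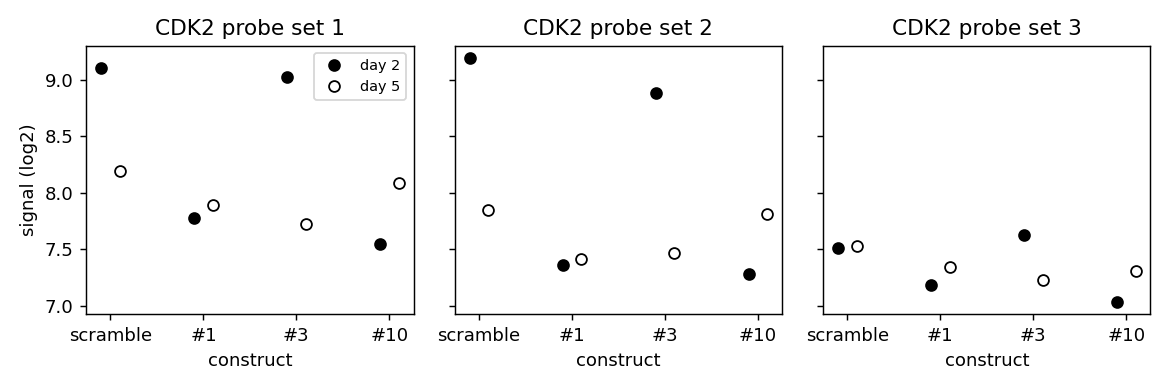
CDK2 signal (log2, vertical axis) on its 3 probe sets in each construct (horizontal axis), filled for day 2 and open for day 5, 1 array per point. At day 2 hairpins #1 and #10 sit below scramble on each probe set, while #3 is near it, and on the first 2 probe sets scramble at day 5 is lower than at day 2.

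The hairpins differed widely in how many genes moved. Past 1 log2 from scramble, 39 genes (0.304% of those tested) were higher and 66 (0.514%) lower in #1. In #3, 129 (1.00%) were higher and 118 (0.919%) lower, and in #10, 874 (6.80%) were higher and 517 (4.02%) lower. Hairpins #1 and #10 had similar CDK2 signals, 7.78 and 7.54 log2, yet 636 genes were more than 1 log2 higher in #10 than in #1 and 46 were lower. These counts have no replicate check, since each sets 1 array against 1. The share of higher genes among those past 1 log2 was 37.1% in #1, 52.2% in #3 and 62.8% in #10. It moved to 45.8% in #1 and 62.4% in #3 after quantile normalization, and to 23.2% in #1 after median centring. With the hairpins as repeats, limma called 0 genes (0%) at an adjusted p under 0.05. Unadjusted p was under 0.05 for 442 genes (3.44%), 27 higher and 415 lower.

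Only 10 genes (0.0779%) were more than 1 log2 above scramble in all 3 hairpins, and 4 (0.0311%) were more than 1 log2 below it. In each of the 14, hairpin #10 lay farthest from scramble. The 3 differences share 1 scramble array, so agreement in sign between hairpins is not independent evidence.

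Several of the higher genes belong to interferon defence or to leukocyte surfaces. GBP2, an interferon-induced GTPase, read 5.17 log2 in scramble, 6.66 in #1, 6.71 in #3 and 10.08 in #10. UBE2L6, the conjugating enzyme for ISG15, read 7.27, 8.30, 8.48 and 9.61 in the same order. Every hairpin array thus lay above scramble for both genes, with #10 alone at the top by a wide margin for GBP2. SHFL, an interferon-induced inhibitor of ribosomal frameshifting, differed from scramble by 1.00 log2 in #1, 1.02 in #3 and 3.17 in #10. CLEC2B, a C-type lectin of activated leukocytes, read 4.22 log2 in scramble and 5.61, 6.37 and 8.54 in #1, #3 and #10. CD300A, an inhibitory receptor of leukocytes, read 7.77, 8.78, 9.58 and 11.38. Scramble values of GBP2 and CLEC2B, and of PPP1R3B, SPAG4 and ZFP36L1 below, lie under the filter level, where the lower end of a difference is poorly measured. With values floored at that level, 5 of the higher genes in place of 10 were past 1 log2 in all 3 hairpins.

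The other higher genes act in metabolism, mRNA decay and growth control. PLIN2, the coat protein of lipid droplets, read 7.33 log2 in scramble, 8.39 in #1, 8.62 in #3 and 10.51 in #10. PPP1R3B, which targets a phosphatase to glycogen, read 5.12, 6.56, 6.67 and 8.34. ZFP36L1 binds AU-rich mRNAs and speeds their decay. Its brightest probe set read 5.45 log2 in scramble and differed by 1.05 in #1, 2.19 in #3 and 5.22 in #10, but the mean of its 6 probe sets differed by only 0.40, 0.51 and 1.09. HBP1, a repressor of cell-cycle genes, read 7.27 log2 in scramble and 8.62, 9.11 and 10.17 in the hairpins. SPAG4, a nuclear envelope protein that hypoxia induces, read 4.88, 6.15, 7.44 and 8.64. With probe sets averaged, 78 of 234 differences past 1 log2 among the named genes were more than 1.5 times smaller, those of HBP1, NDRG1, MXI1, ITGAX and SLC7A5 in #10 among them. The genes just inside the limit were CD300A and SHFL, whose least-moved hairpin differed by 1.00, and those just outside were WSB2 at 0.97 and SPP1 at 0.96.

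The 4 lower genes were more even across hairpins. P2RY2, a receptor for extracellular nucleotides, read 9.70 log2 in scramble, 8.57 in #1, 8.59 in #3 and 8.38 in #10. CHAC2, which degrades glutathione, read 8.96, 7.85, 7.86 and 6.97. CLN6, an endoplasmic reticulum membrane protein, read 10.11, 8.88, 9.05 and 8.41, and RRP15, needed for the large ribosomal subunit, read 7.31, 6.30, 6.14 and 5.83. For all 4, the hairpin arrays lay nearer to each other than to scramble. The gene just outside the limit was FDXACB1, whose least-moved hairpin differed by -0.998. Among the other genes that followed were NOL9 and ISG20L2, which process ribosomal RNA, DDX19A, an mRNA export helicase, and MARS2, the mitochondrial methionyl-tRNA synthetase. Their least-moved hairpins differed by -0.99, -0.92, -0.99 and -0.93 log2. The limma mean difference was -1.18 (SE 0.33) for P2RY2 and -1.33 (SE 0.40) for CLN6, with adjusted p of 0.9999 in both cases.

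The scramble array of day 5 gives a second view of the control, though 3 more days of culture separate it. For all 10 higher and all 4 lower genes, scramble at day 5 lay on the hairpins' side of scramble at day 2, by a median of 0.80 log2 for the higher genes and -0.74 for the lower. HBP1, for example, read 8.78 log2 in scramble at day 5, above hairpin #1. At a smaller limit of 1.5-fold, 61 genes (0.475%) were higher and 180 (1.40%) lower in all 3 hairpins. Scramble at day 5 lay on the same side for 2843 of the 3287 genes above scramble by any amount in all 3 hairpins. For the 3401 genes below, it did so in 2783. For the genes past 1.5-fold, it did so in 53 of the 61 and in all 180. A difference made by the hairpins and one made by the lone day 2 scramble array cannot be told apart in these genes.

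Past 1 log2 from both scramble arrays, 0 genes were left in either direction. At 1.5-fold from both, a comparison added after the data were seen, 13 genes (0.101%) were higher and 3 (0.0234%) lower in all 3 hairpins. The higher ones were CLEC2B, CR1, NDRG1, PLEKHA8, PLIN2, RRAGD, SCARB2, SEL1L3, SLC40A1, SPAG4, STK17B, UBE2L6 and VLDLR. Among them, RRAGD is a Rag GTPase that signals amino acid supply to mTORC1 at the lysosome and SCARB2 a lysosomal membrane protein. RRAGD read 8.15 log2 in scramble at day 2 and 7.41 at day 5, against 8.84, 8.85 and 9.90 in #1, #3 and #10. SLC40A1, the iron exporter ferroportin, read 6.04 and 5.68 in the scramble arrays and 7.33, 6.69 and 8.54 in the hairpins. CR1, a complement receptor, read 6.20 and 5.96 against 6.80, 7.57 and 10.07. Here the hairpin arrays of day 2 lay above both controls. The lower ones were CLN6, ISG20L2 and MEPCE, the capping enzyme of 7SK RNA. MEPCE read 10.51 and 10.36 log2 in scramble at day 2 and day 5 and 9.76, 9.58 and 9.18 in the hairpins.

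**Figure D2:**
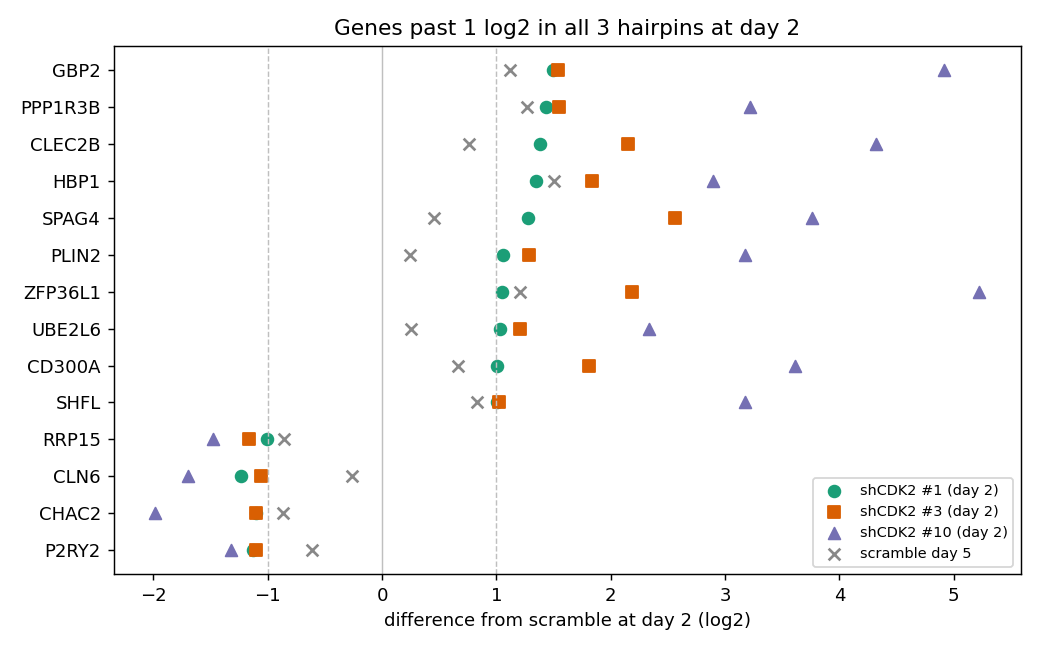
Difference from scramble at day 2 (log2, horizontal axis) for the 14 genes past 1 log2 in all 3 hairpins, 1 symbol per array; crosses are scramble at day 5. Dashed lines mark -1 and 1. Hairpin #10 is outermost for each gene, and each cross lies on the same side of 0 as the hairpins.

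Genes of ribosome assembly and the nucleolus were lower as a group in all 3 hairpins. Of 40 tested members, 37 were below scramble in all 3 (92.5%, beside 26.5% of all tested genes, which share the control), and 14 (35%, against 1.40% of all tested genes) were below by more than 1.5-fold in all 3. Their median differences were -0.70 log2 in #1, -0.57 in #3 and -1.15 in #10, beside 0.01, 0.03 and -0.03 over all tested genes. Limma called 0 of them, and 19 (47.5%) had an unadjusted p under 0.05, beside 3.44% of all genes. The list was chosen with earlier results of these data known. Scramble at day 5 was below scramble at day 2 in all 40 (beside 5650 of 12845 tested genes), by a median of -0.57 log2, as in #3. Against scramble of their own day, the day 5 hairpins gave medians of 0.05, -0.16 and -0.39.

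PNO1, which matures the small ribosomal subunit, read 9.76 log2 in scramble, 7.90 in #1, 9.06 in #3 and 7.42 in #10, and 8.79 in scramble at day 5. GRWD1, a ribosome assembly chaperone, read 11.20, 10.40, 10.23 and 9.29, and 10.86 in scramble at day 5. MRTO4, which helps build the ribosomal stalk, read 10.38, 9.49, 9.51 and 8.56, and 9.53. In each of these genes scramble at day 2 was the highest of the 5 arrays. Hairpin #10 lay more than 1 log2 below scramble at day 2 in 29 of 40 members, against 3 in #1 and 1 in #3. Of all genes, 4.02%, 0.514% and 0.919% were below by that much. The abundant nucleolar protein NCL differed by less than the list's median in each hairpin, at -0.35, -0.20 and -0.42 log2 in #1, #3 and #10. NPM1, another, was at -0.65, -0.04 and -0.75, near the list's median in #1 and near scramble in #3.

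**Figure D3:**
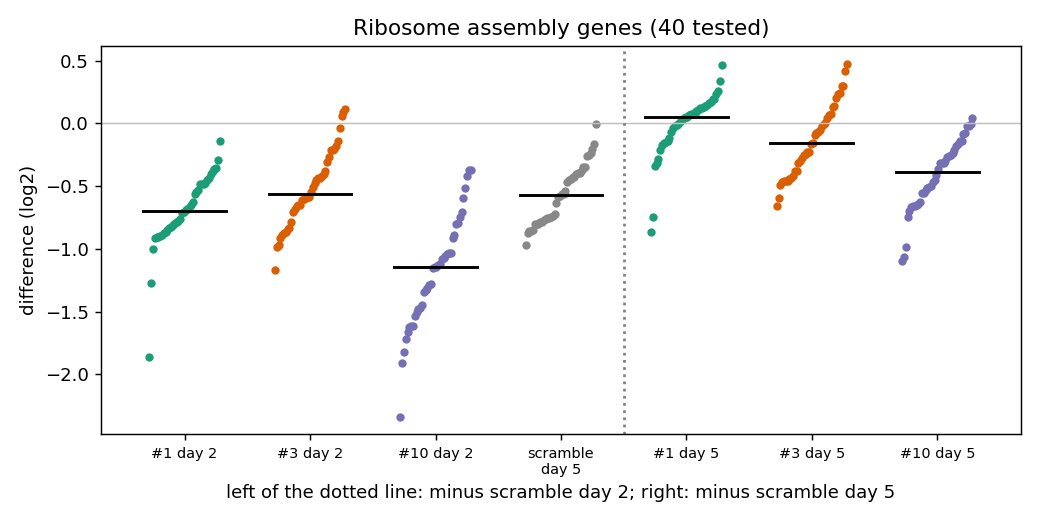
Differences (log2, vertical axis) of 40 ribosome assembly genes, 1 point per gene and a bar at the median, for each array named on the horizontal axis. Left of the dotted line arrays are set against scramble at day 2 and right of it against scramble at day 5; all 40 points of scramble at day 5 lie below 0.

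Promoters of these genes were read from RefSeq (GRCh38.p14) as the 250 bases before and 50 after each start. The letters CACGTG, an E-box that MYC and MAX bind, read the same on both strands and were found in 14 of 36 ribosome assembly promoters (38.9%). The share was 9.69% of 10382 promoters of tested genes and 7.43% of all 27305 promoters. The list was chosen by function, with earlier results of these data known. Its share therefore describes that choice and is no result of these arrays. Among the 180 genes lower in all 3 hairpins by 1.5-fold, which include 14 genes of the list, 30 of 155 promoters (19.4%) held it. A match describes the letters and shows no binding. The stretches below, from upstream of the start and with the E-box in capitals, come from UTP20 and UTP4, of the small subunit processome, NAT10, an acetyltransferase of ribosomal RNA, IMP4, a U3 particle protein, and SLC7A5, the amino acid transporter LAT1. They lie at chr12:101280068-101280104 (+), chr16:69132606-69132648 (+), chr11:34105587-34105628 (+), chr2:130342667-130342726 (+) and chr16:87869605-87869664 (-).
UTP20: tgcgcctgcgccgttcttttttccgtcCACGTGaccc
UTP4: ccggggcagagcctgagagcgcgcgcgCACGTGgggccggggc
NAT10: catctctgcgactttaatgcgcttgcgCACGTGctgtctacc
IMP4: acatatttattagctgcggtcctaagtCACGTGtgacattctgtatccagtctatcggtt
SLC7A5: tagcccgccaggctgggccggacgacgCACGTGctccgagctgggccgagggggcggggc
UTP20 differed from scramble by -0.71, -0.85 and -1.72 log2 in #1, #3 and #10, UTP4 by -0.38, -0.51 and -1.08, NAT10 by -0.79, -0.14 and -1.31, and IMP4 by -0.72, -0.44 and -1.62. SLC7A5 read 11.30 log2 in scramble, 9.63 in #1, 10.54 in #3 and 8.93 in #10.

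Mitochondrial ribosomal proteins followed the same pattern with smaller differences. Of 46 tested members, 40 (87%, beside 26.5% of all tested genes) were below scramble in all 3 hairpins, with medians of -0.41, -0.35 and -0.82 log2 in #1, #3 and #10. Scramble at day 5 was lower than at day 2 in 45 of the 46 (beside 5650 of 12845 tested genes), by a median of -0.41. MRPS12, of the small subunit, read 10.99 log2 in scramble, 10.19 in #1, 10.24 in #3 and 9.33 in #10. MRPL12, of the large subunit, read 11.53, 10.80, 10.81 and 10.02. Scramble at day 5 read 10.53 for MRPS12, above every hairpin, and 10.74 for MRPL12, just below #1 and #3.

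Several other lists differed between the hairpins. In #10 the highest median was that of hypoxia-inducible genes, and in #3 those of hypoxia-inducible and cholesterol genes. In #1 the medians farthest from 0 were those of the cytosolic and mitochondrial ribosome lists.

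**Figure D4:**
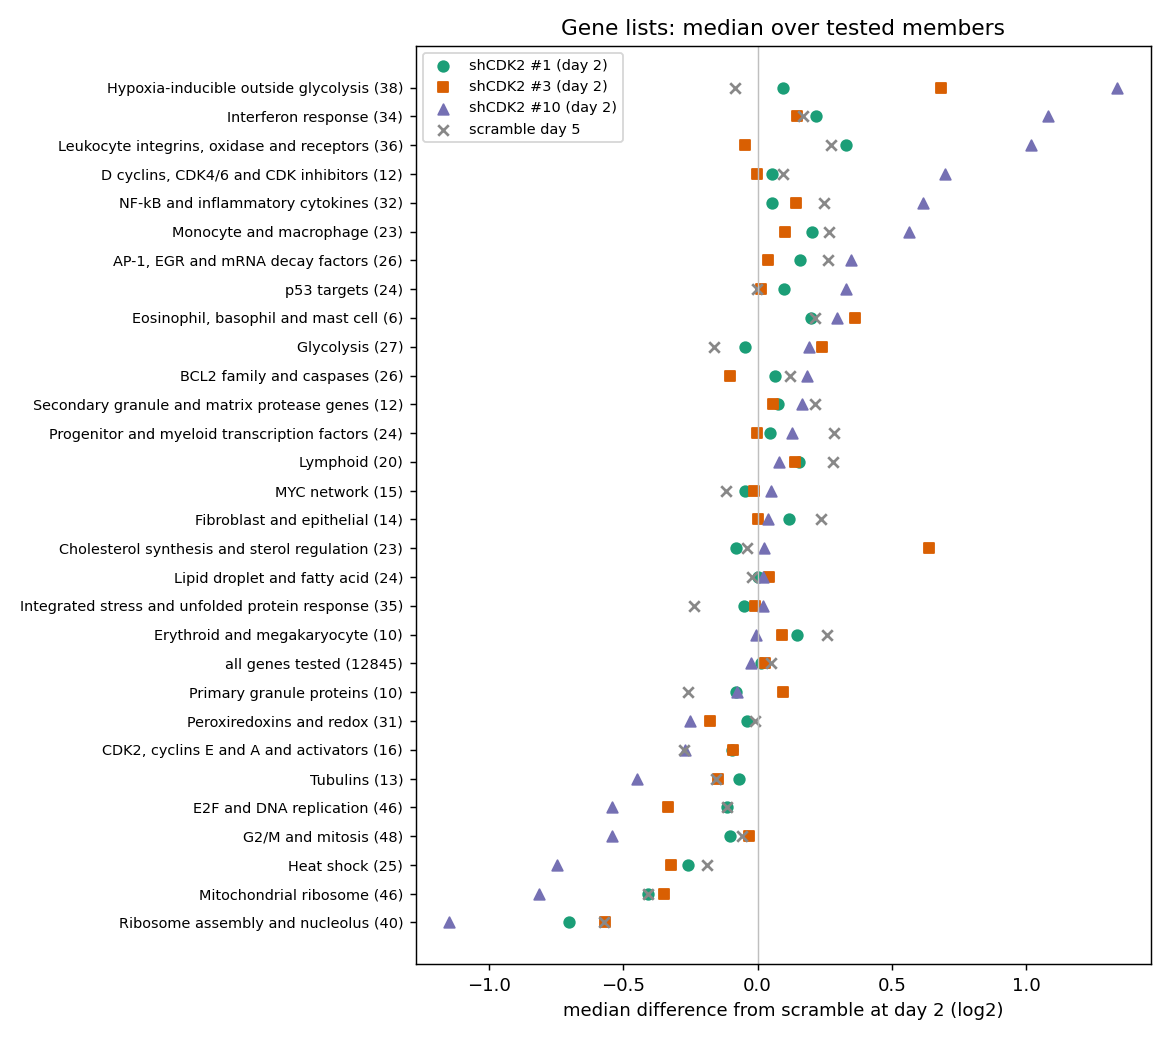
Median difference from scramble at day 2 (log2, horizontal axis) over the tested members of each list (vertical axis, number of members in brackets), 1 symbol per array, with all 12845 tested genes as a row. Hairpin #10 spans the widest range, from -1.15 for ribosome assembly to 1.34 for hypoxia-inducible genes, and scramble at day 5 is close to #3 for ribosome assembly and to #1 for mitochondrial ribosomes. For 18 of the 29 lists a median within 0.11 of 0 took the other sign in at least 1 hairpin under another scaling or with probe sets averaged.

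Genes of DNA replication were lower most in #10 and least in #1. Over 46 genes of E2F targets and DNA replication, medians were -0.11, -0.33 and -0.54 log2 in #1, #3 and #10, and 28 were below scramble in all 3 (60.9%, beside 26.5% of all genes). The median of #1 turned to 0.02 after quantile normalization. Scramble at day 5 was below scramble at day 2 in 31 of the 46 (beside 5650 of 12845 tested genes), by a median of -0.11. FEN1, the flap endonuclease of lagging-strand synthesis, read 11.04 log2 in scramble, 10.41 in #1, 10.32 in #3 and 9.98 in #10. CCNE2, a cyclin partner of CDK2, was low in #3 alone, at 5.30 log2 against 7.44 in scramble, 7.99 in #1 and 8.14 in #10. CDC25A, the phosphatase that activates CDK2, read 10.60, 9.89, 9.97 and 9.06.

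Mitotic genes were lower in #10, with 9 of 48 past 1 log2 (background 4.02%) and a median of -0.54, and 0 past it in #1 and #3. The medians of #1 and #3, -0.10 and -0.03, turned to 0.04 and 0.09 after quantile normalization. FOXM1, which drives mitotic transcription, read 8.74 log2 in scramble, 8.12 in #1, 7.81 in #3 and 7.16 in #10, and CCNB1, the mitotic cyclin, read 11.39, 10.94, 10.82 and 9.86. Of the CDK inhibitors, CDKN1A (p21) read 7.0, 7.87, 7.22 and 9.16 log2, and 7.84 in scramble at day 5, so #1 was level with the later control. CDKN1B (p27) read 8.10, 8.13, 8.65 and 9.44.

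Hypoxia-inducible genes outside glycolysis were higher in #3 and #10. Of 38 tested members, 15 were more than 1 log2 higher in #3 and 22 in #10, against 1 in #1, and the medians were 0.68, 1.34 and 0.10 log2. Of all genes, 1.00%, 6.80% and 0.304% were past that limit. With probe sets averaged the medians were 0.43, 0.90 and 0.03. Scramble at day 5 had a median of -0.08. NDRG1, a stress-induced protein, read 8.68 log2 in scramble, 9.50 in #1, 10.80 in #3 and 11.28 in #10. VLDLR, a lipoprotein receptor, read 6.75, 7.44, 8.17 and 9.78, and MXI1, a MAX partner that opposes MYC, read 9.44, 9.88, 11.46 and 11.94. For NDRG1 and MXI1, #3 lay nearer to #10 than to #1, and for VLDLR nearer to #1. DDIT4, an mTORC1 inhibitor, read 10.98, 11.41, 12.25 and 12.51. Oxygen or culture density in the cultures is not given in the labels.

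Glycolytic enzymes moved in part with them. Past 1 log2, 0 of 27 were higher in #1, 5 in #3 and 8 in #10, beside 0.304%, 1.00% and 6.80% of all genes, and the medians were -0.05, 0.24 and 0.19. ALDOC, an aldolase, read 9.36 log2 in scramble, 9.18 in #1, 12.44 in #3 and 11.81 in #10, and was the gene that differed most in #3. HK1, a hexokinase, read 7.01, 7.14, 9.29 and 9.80, and ENO2, an enolase, 7.05, 7.51, 8.53 and 9.50. For ALDOC and HK1, #1 stayed near scramble.

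Cholesterol genes set #3 apart. Of 23 tested members, 22 were above scramble in #3 (as were 53.9% of all genes), 7 of them by more than 1 log2, against 0 in #1 and 4 in #10. The shares of all genes past 1 log2 were 1.00% in #3, 0.304% in #1 and 6.80% in #10. The medians were 0.64 log2 in #3, -0.08 in #1 and 0.02 in #10; the small values turned sign, to 0.03 in #1 after quantile normalization and -0.005 in #10 with probe sets averaged. MSMO1, a sterol synthesis enzyme, read 9.09 log2 in scramble, 9.15 in #1, 10.64 in #3 and 10.11 in #10, and INSIG1, which retains SREBP in the endoplasmic reticulum, read 11.07, 10.63, 12.67 and 12.28. ABCA1, which exports cholesterol and is induced by sterols rather than repressed, read 5.54, 6.02, 7.06 and 8.12. FADS2, a fatty acid desaturase outside this list, read 9.62, 9.68, 11.42 and 10.12, and ACSS2, which makes acetyl-CoA, 7.40, 7.62, 9.54 and 8.55, both highest in #3. HILPDA, a hypoxia-induced lipid droplet protein, read 9.86, 9.47, 11.42 and 11.56.

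**Figure D5:**
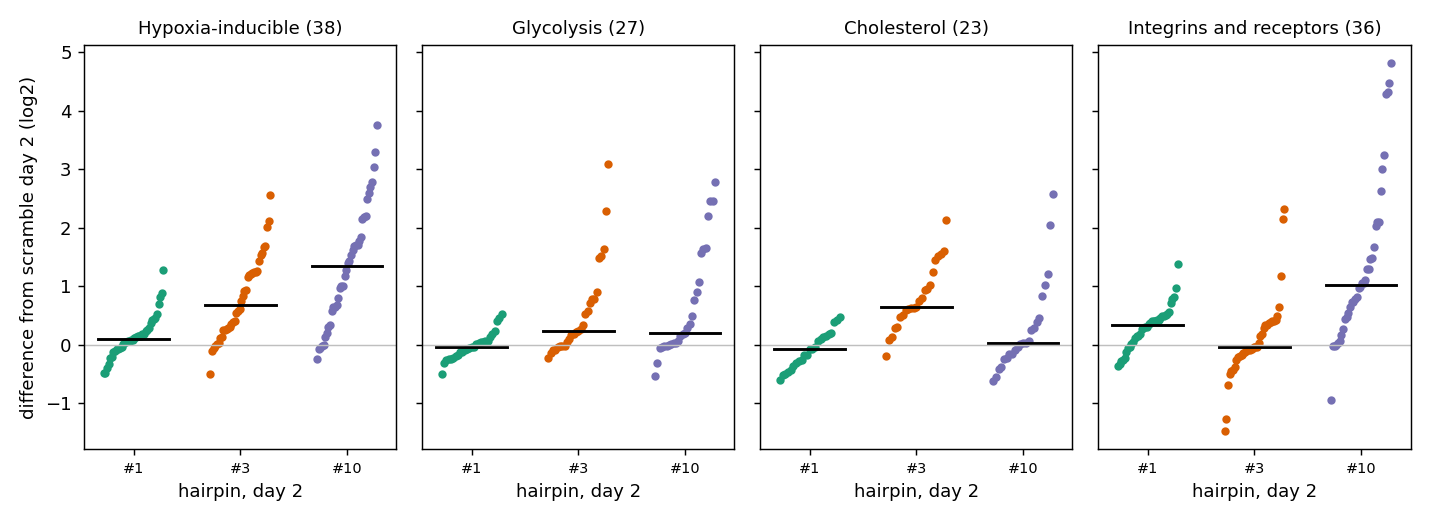
Differences from scramble at day 2 (log2, vertical axis) for members of 4 lists in each hairpin, 1 point per gene and a bar at the median, with the number of genes in each title. Hairpins #3 and #10 are both high for hypoxia-inducible genes, #3 alone has a median well above 0 for cholesterol genes, and #10 has the highest median for integrins and receptors.

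Leukocyte integrins, oxidase subunits and receptors were higher mainly in #10. Of 36 tested members, 18 were more than 1 log2 higher in #10, 3 in #3 and 1 in #1 (background 6.80%, 1.00% and 0.304%). The median of #10 was 1.02 log2, and 0.63 with probe sets averaged. Scramble at day 5 was above scramble at day 2 in 29 of the 36 members (beside 7192 of 12845 tested genes), by a median of 0.27. ITGAM (CD11b), an integrin of maturing neutrophils and monocytes, read 6.88 log2 in scramble, 7.70 in #1, 7.21 in #3 and 11.16 in #10. It read 8.14 in scramble at day 5, above #1 and #3. C5AR1, the receptor for complement C5a, read 4.13, 4.53, 4.28 and 8.60, so that only #10 lay above the filter level. FCGR2B, an inhibitory Fc receptor, read 5.93, 6.34, 8.24 and 10.74 and was also high in #3, although its probes can share signal with its close paralogs. ITGAX (CD11c) read 6.86, 7.83, 7.27 and 10.10, and the scramble array of day 5 read 7.77, close to #1. In bulk RNA a change in the number of cells that express a gene and a change of RNA per cell cannot be told apart.

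Markers of other cell types were measured beside them. Of 23 tested monocyte and macrophage genes, 8 were more than 1 log2 higher in #10 (background 6.80%), and 0 in #1 and #3. The median of #10 was 0.57 log2, but only 0.19 with probe sets averaged. CD86, a costimulatory ligand, read 6.35 log2 in scramble, 7.0 in #1, 6.82 in #3 and 8.38 in #10, and CTSS, a lysosomal protease, 7.90, 8.71, 8.07 and 9.82. CD14 read 5.76 and CD163 4.70 in #10, both below the filter level. Of 6 eosinophil, basophil and mast cell genes, 2 were more than 1 log2 higher in #10, HDC by 1.35 and PRG2 by 1.08. VIM, which fibroblasts and leukocytes both express, was 1.39 higher in #10. Of 20 lymphoid genes, 2 were higher in #10, a share near the background of 6.80%: CD3D at 11.27 log2 against 8.81 in scramble, and NKG7 at 10.45 against 9.31. MS4A1, which marks B cells, read 4.23 in #10 and 4.67 in scramble. CD9, a tetraspanin of the erythroid and megakaryocyte list, read 8.07 log2 in scramble, 8.51 in #1, 8.90 in #3 and 11.24 in #10, while PF4 of platelets read 6.47, 6.73, 6.56 and 6.44. Their part in the results was not tested.

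Granule genes did not move as 1 group. PRTN3, a serine protease of promyelocyte granules, read 11.18 log2 in scramble, 10.60 in #1, 10.58 in #3 and 9.99 in #10, while AZU1, its neighbour in function, read 9.28, 9.26, 9.91 and 10.50. MS4A3, a promyelocyte gene, lay farther below scramble in #10 than any other tested gene, at 7.74 log2 against 10.75 in scramble, 9.80 in #1 and 10.25 in #3. MMP9, a matrix protease of neutrophils, read 9.96, 11.03, 10.66 and 12.73, and 11.31 in scramble at day 5. CEBPA, the factor that drives granulocyte commitment, read 12.30, 11.95, 11.13 and 11.48.

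Interferon-response genes were higher in #10, with 18 of 34 tested members past 1 log2, against 1 in #1 and 1 in #3, beside 6.80%, 0.304% and 1.00% of all genes. The medians were 1.08 log2 in #10, 0.22 in #1 and 0.15 in #3, and scramble at day 5 had a median of 0.17. IRF9, a subunit of the interferon-activated factor ISGF3, read 6.86 log2 in scramble, 7.76 in #1, 6.89 in #3 and 9.93 in #10, and BST2, which tethers virus particles, read 9.44, 9.97, 10.31 and 11.33. The list's promoters hold GAAANNGAAA, the interferon-stimulated response element, in 17 of 27 cases (63.0%). Both strands were searched, and on the other it reads TTTCNNTTTC. The share was 2.70% of promoters of tested genes and 3.65% of all promoters. The list was made of interferon-response genes whether or not they moved, so its share describes that choice and is no result of these arrays. The letters are in capitals in the stretches of BST2 at chr19:17405718-17405787 (-), SHFL at chr19:10086247-10086310 (+) and TNFSF10, the death ligand TRAIL, at chr3:172523581-172523644 (-). BST2 is a member of the list, while SHFL and TNFSF10 are not.
BST2: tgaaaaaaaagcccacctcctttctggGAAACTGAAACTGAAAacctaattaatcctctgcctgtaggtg
SHFL: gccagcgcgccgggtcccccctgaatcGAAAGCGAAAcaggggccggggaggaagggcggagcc
TNFSF10: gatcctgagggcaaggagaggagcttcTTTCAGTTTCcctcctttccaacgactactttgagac
TNFSF10 read 6.54 log2 in scramble, 7.29 in #1, 7.25 in #3 and 10.00 in #10.

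Inflammatory genes were also higher most often in #10. Of 32 NF-kB and cytokine genes, 9 were more than 1 log2 higher in #10, 3 in #3 and 1 in #1. Of all genes, 6.80%, 1.00% and 0.304% were past that limit. More than 1 log2 lower were 0 in #10, 1 in #3 and 1 in #1, beside 4.02%, 0.919% and 0.514% of all genes. Scramble at day 5 had a median of 0.25 log2. The hairpin medians were 0.62 in #10, 0.14 in #3 and 0.05 in #1. The last turned to -0.004 after median centring. IL1B, an inflammatory cytokine, read 7.02 log2 in scramble, 7.91 in #1, 7.23 in #3 and 11.16 in #10, and 8.12 in scramble at day 5. ICAM1, an adhesion ligand of integrins, read 8.18, 9.92, 8.33 and 11.84, and 10.09 in scramble at day 5, which is level with #1. CCL2, a monocyte chemokine, was low in #3 alone, at 7.94 log2 against 10.25 in scramble, 10.91 in #1 and 10.94 in #10. DUSP6, which switches off ERK, read 10.05, 11.13, 10.42 and 12.95, and JUN, a subunit of AP-1, read 6.30, 7.11, 6.82 and 9.38.

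Stress and survival genes split by gene. Of 25 heat shock genes, 18 were below scramble in all 3 hairpins (72%, beside 26.5% of all genes). The medians were -0.26, -0.32 and -0.75 log2. Scramble at day 5 was below scramble at day 2 in 20 of the 25 (beside 5650 of 12845 tested genes), by a median of -0.19. CHORDC1, an HSP90 partner, read 9.61 log2 in scramble, 8.64 in #1, 8.56 in #3 and 8.25 in #10, but 8.03 in scramble at day 5, below every hairpin. HSPA1B, an inducible HSP70, read 9.29, 8.99, 7.74 and 8.31, and was lowest in #3, though its near-identical copy HSPA1A can share its probes. ATF5, of the stress response, read 8.16, 7.28, 7.22 and 6.48. TXNIP, which binds thioredoxin and restrains glucose uptake, read 9.26, 10.06, 10.82 and 12.60, while GCLM, of glutathione synthesis, read 9.17, 8.58, 8.19 and 7.54. TNFRSF10B, a TRAIL receptor and p53 target, read 8.83, 9.77, 9.26 and 11.11, and AEN, another p53 target, read 9.24, 8.39, 8.41 and 7.91, in the opposite direction.

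Promoters of HBP1 and TXNIP hold TGTTTAC, which FOXO factors bind, read on the other strand as GTAAACA and shown in capitals at chr7:107168803-107168863 (+) and chr1:145996670-145996730 (-). Among genes higher in all 3 hairpins by 1.5-fold, 3 of 44 promoters (6.82%) held it, CR1 being the other. The share was 2.23% of promoters of tested genes and 3.41% of all. Among genes lower in all 3 by 1.5-fold, 4 of 155 (2.58%) held it, RRP15 among them. The ribosome assembly list, which was lower, held it in 2 of 36 (5.56%) and the interferon list in 2 of 27 (7.41%). These shares rest on few matches.
HBP1: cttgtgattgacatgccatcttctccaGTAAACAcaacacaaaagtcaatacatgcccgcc
TXNIP: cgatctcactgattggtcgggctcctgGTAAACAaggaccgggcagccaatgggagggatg

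Some genes moved far in 1 or 2 hairpins and not in the others, or in opposite directions. In #1 and #10 but not #3, PLXNC1, a semaphorin receptor, read 7.67 and 8.63 log2 against 5.70 in scramble and 4.97 in #3. It read 7.81 in scramble at day 5. ALOX5AP, needed for leukotriene synthesis, read 7.84 in scramble, 9.53 in #1, 7.35 in #3 and 11.95 in #10, and 9.60 in scramble at day 5. For both genes, #1 was close to the later scramble array. Among lower genes, CD81, a tetraspanin, read 10.78, 8.63, 10.25 and 8.68, and DLD, a subunit of pyruvate dehydrogenase, 11.57, 9.75, 11.46 and 9.89. DLD read 11.67 in scramble at day 5, so #1 and #10 lay below both controls. QDPR, which recycles tetrahydrobiopterin, read 10.88, 9.06, 10.27 and 8.28, and 10.54 at day 5. In #3 and #10 but not #1, TUBA1A, an alpha-tubulin, read 10.63 and 10.03 log2 against 8.18 in scramble and 7.63 in #1. THBS1, a matrix glycoprotein of platelets, moved in opposite directions, at 6.59 log2 in #3 against 9.12 in scramble, 9.89 in #1 and 10.86 in #10. SERPINA1, the alpha-1-antitrypsin gene, was high in #10 alone, at 10.62 log2 against 6.07 in scramble, 6.66 in #1 and 6.63 in #3.

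Whether the differences were particular to day 2 was tested as the change at day 2 minus the change at day 5. Limma called 0 genes (0%), and 164 had an unadjusted p under 0.05. CD81 was below scramble in all 3 hairpins at day 2 and above it in all 3 at day 5, when scramble read 9.10 log2.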

How the data were processed

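Total RNA of NB4 cells was measured on Affymetrix arrays. The deposited values are log2 signals of 49395 probe sets, a scale read from their range. The submitters' processing notes name Partek. The sources used here do not give its version, summarization or normalization. Values were used as deposited.

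Names came from the platform annotation and RefSeq for the 44994 probe sets with a single gene. The probe set brightest on average across all arrays stood for its gene. Of 18132 genes, 12845 passed the filter on dim values. Each hairpin was set against the scramble array of day 2, 1 array against 1, with no test, and a gene was counted past 1 log2. A fit with a mean per construct type and day used limma 3.58.1 in R 4.3.3 and the data.table package, version 1.17.8 (4 residual degrees of freedom, prior 3.13), two-sided, with Benjamini-Hochberg adjustment. It assumes that the lone scramble array varies as the hairpin arrays do. The fit was tested on simulated data. Figures used matplotlib 3.10.9 in Python 3.11.15 with pandas 2.3.3.

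The members and lists were chosen with earlier results of these data known. Named genes are CDK2, per direction the 15 whose least-moved hairpin moved most, per hairpin and direction the 8 that moved most, and up to 4 per list with the largest mean change. Symbols of uncharacterized loci were passed over. Others were chosen after their values were seen: genes past 1.5-fold from both scramble arrays, genes printed with promoters, NCL and NPM1. Cell type markers form a list of their own. Promoters were matched by symbol (10382 of the tested genes, on GRCh38.p14). Alternatives changed the normalization, probe set rule, filter, floor, fold limit, moderation, arrays and replicate block. The number of arrays limits the precision.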

Additional observations from a re-analysis of the deposited data

Results flagged for a closer look

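In 7 named genes all 3 hairpins lay on one side of scramble at day 2 and on the other side at day 5. By sign alone this was not tested, and in limma's test of the difference between the days none of the 7 passed an adjusted p of 0.05. The change at day 2 minus the change at day 5 was -3.20 log2 for CD81, -1.75 for CHORDC1, -1.59 for RBIS and -1.33 for FDXACB1, which were lower at day 2. It was 0.56 for ZAP70, 0.75 for SIGLEC8 and 0.49 for KRT18, which were higher at day 2. Each change uses the lone scramble array of its day.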

How the results depend on the processing

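Limma called 0 genes at day 2 under all 12 settings run, with 115 to 794 at an unadjusted p under 0.05 (115 without hairpin #10 and 794 without #1). With the hairpin number as a random replicate block (consensus correlation 0.27) 0 were called and 469 had an unadjusted p under 0.05. The fold counts moved more. Genes past the limit in all 3 hairpins numbered 5 higher and 11 lower after median centring, 4 and 2 with probe sets averaged, and 5 higher with a floor at the filter level. In the hairpins left after 1 was omitted, counts ran from 10 to 94 higher and from 4 to 48 lower, with 39 higher and 48 lower without #3 and 94 and 45 without #1. At a 1.5-fold limit the counts, higher and lower, were 254 and 568 in #1, 483 and 804 in #3, 1665 and 1605 in #10, and 61 and 180 in all 3. At 2 log2 they were 0 and 1, 12 and 3, 184 and 13, and 0 and 0. With the mean of probe sets they were 16 and 30 in #1, 67 and 70 in #3, and 499 higher in #10. Past 1 log2 from both scramble arrays, an alternative chosen after seeing the data, they were 3 and 13 in #1, 47 lower in #3, 114 lower in #10, and 0 and 0 in all 3. The causes of these moves were not tested, beyond the construction of the fold limits. No fitted difference of CDK2 or of a shared gene turned its sign. Medians of 18 of the 29 lists did in at least 1 hairpin, all within 0.11 log2 of 0 as deposited, and those of ribosome assembly, mitochondrial ribosome, interferon, hypoxia-inducible, glycolysis and heat shock genes did not. With 1 scramble array a day, the error of the control cannot be measured, and differences of genes near the filter level are poorly measured at their lower end.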
